A study of Mus musculus with 16 samples.

Results

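The genes described here encode complement components, regulators and a receptor: C1qa, C1qb, C1qc, C1s1, C2, C3, C3ar1, Cfb and Serping1. Probe sets of the array whose only gene symbol is one of these names were taken, which gave 14 of the 34945 single-symbol probe sets and 8 of the 18193 genes so named. No probe set was assigned to C3 by this rule, and C3 was not analysed here. All 8 genes that were measured passed the filter on low values and are among the 11908 genes tested. The RNA came from macrophages sorted from the perigonadal fat of C57BL/6J mice aged 12 to 14 weeks, and the series compared obese with lean mice and CD11c-positive with CD11c-negative cells. The obese FB group held F4/80+, CD11b+, CD11c- cells of Lep ob/ob mice, and the lean FB group held the same sort from Lep +/+ mice. The obese FBC group held F4/80+, CD11b+, CD11c+ cells of Lep ob/ob mice, and the lean FBC group held that sort from Lep +/+ mice. In the cell type label of the FBC arrays the sign of CD11c is written both ways, and the sort was taken from the description. FB and FBC cells were taken from 4 obese and 4 lean mice, and each of the 4 groups has 4 arrays. Obesity in this model comes from the loss of leptin, so the absence of leptin and the obesity cannot be told apart.

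Complement is a system of plasma and cell-surface proteins that marks microbes, immune complexes and dying cells for removal and recruits leukocytes. In the classical pathway C1q binds the target, its attached protease C1r activates C1s, C1s cuts C4 and C2, and the resulting enzyme splits C3; the alternative pathway reaches C3 through factor B, and the C1 inhibitor holds C1r and C1s in check. Macrophages are a main source of C1q, while C1s, C2, factor B and the C1 inhibitor are also made by stromal cells and hepatocytes and can be induced by interferon.

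Levels are given as log2(intensity + 16) after quantile normalization, and differences are log2 differences ± SE from limma, on a scale that understates the change of dim genes. The array median was 5.87 on this scale. Every p-value rests on the spread from array to array, and the number of arrays limits the precision. Macrophage genes were bright on all 16 arrays: Adgre1, which encodes F4/80, lay between 11.94 and 13.69 and Csf1r, the receptor for macrophage growth factor, between 13.36 and 13.68. Itgax, which encodes CD11c, was at 10.99 ± 0.39 in obese FBC, 8.78 ± 0.36 in obese FB, 10.29 ± 0.49 in lean FBC and 8.80 ± 0.22 in lean FB (SD, n = 4 each), so the CD11c-negative sort did not lack Itgax signal. The 3' to 5' ratio of the actin probe sets, a sign of RNA quality, was 45.0, 53.3 and 48.0 on the arrays numbered 4 of obese FB, lean FB and lean FBC and between 1.15 and 10.9 on the other 13. The counts of members called, and many counts of gene lists, are therefore also given below without those 3 arrays.

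The 3 chains of C1q are encoded side by side on chromosome 4, in the order C1qb, C1qc, C1qa among protein-coding genes of GRCm38.p6. C1s1, which encodes the protease C1s, lies between C1ra and C1rb on chromosome 6. Cfb and C2 are neighbours on chromosome 17. RefSeq promoter sequences of that build were at hand for 5 of the 9 genes. The 250 bases before the start site are printed for C1qb and C1qc, from the C1q cluster, and for C1s1. The hexamer GAGGAA, a core bound by the macrophage factor PU.1, is in capitals. All 3 genes lie on the minus strand and are written 5′ to 3′ in the direction of transcription.
C1qb, chr4:136886201-136886450: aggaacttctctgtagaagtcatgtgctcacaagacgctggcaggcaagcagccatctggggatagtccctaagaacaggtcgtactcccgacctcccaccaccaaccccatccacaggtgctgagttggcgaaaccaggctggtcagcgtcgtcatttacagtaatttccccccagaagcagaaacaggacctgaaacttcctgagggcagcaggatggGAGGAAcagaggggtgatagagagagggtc
C1qc, chr4:136892915-136893164: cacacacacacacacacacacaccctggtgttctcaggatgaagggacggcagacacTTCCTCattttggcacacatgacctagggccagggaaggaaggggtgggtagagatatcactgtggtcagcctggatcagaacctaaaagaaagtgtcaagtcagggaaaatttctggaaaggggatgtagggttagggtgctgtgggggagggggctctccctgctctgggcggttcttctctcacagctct
C1s1, chr6:124542360-124542609: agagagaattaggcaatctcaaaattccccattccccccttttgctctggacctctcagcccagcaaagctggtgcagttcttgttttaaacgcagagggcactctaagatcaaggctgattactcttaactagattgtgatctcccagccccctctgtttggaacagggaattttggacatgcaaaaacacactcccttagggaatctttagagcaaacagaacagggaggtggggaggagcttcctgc
The C1qb promoter held GAGGAA at bases -30 to -25 from the start. The C1qc promoter held it on the opposite strand, read as TTCCTC above, at bases -193 to -188. These letters were not in the C1s1 window. Of 32851 promoters of the same length of 300 bases (50 of them past the start), 28.3% held GAGGAA on either strand. None of these 3 windows held TATAAA or CCAAT, which 13.6% and 37.4% of promoters held, nor GAAANNGAA or TTCNNNGAA, pairs of half-sites read by interferon regulatory factors and STAT proteins, which 8.56% and 8.3% held. All 5 motifs were searched on both strands, and no 2 matches overlapped. The promoters of C3 and C3ar1, at hand but not printed, held TATAAA and no GAGGAA. The relation of any of these motifs to the levels was not tested.

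In CD11c-negative macrophages, 3 of the 8 complement genes fell in obese mice, and none rose. They were C2, the C1 protease gene C1s1 and the C1 inhibitor gene Serping1, each lower on every obese FB array than on every lean FB array. The genes of the C1q chains, Cfb and C3ar1 did not pass the test. All 8 differences were negative, with a median of -0.72 against 0.03 over all tested genes. In this comparison 5.89% of all tested genes were called at an adjusted p under 0.05, and 4.07% were called lower in obese FB.

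C2 encodes the protease that gives the classical C3 convertase its activity. Its level was 5.56, 4.71, 5.23 and 7.06 on the obese FB arrays and 7.81, 9.46, 9.23 and 7.20 on the lean FB arrays. All obese FB arrays lay below all lean FB arrays, by the narrowest margin between the 2 arrays numbered 4, and 1 of 4 obese FB arrays was above the array median. The difference was -2.78 ± 0.53 (adjusted p = 0.0049). Because obese FB lay near the array median, the size depends on the pseudocount, and with a pseudocount of 1 it was -3.38. Its other probe sets differed by -1.81 ± 0.37 (1457664_x_at, adjusted p = 0.01) and -0.97 ± 0.33 (1416051_at, adjusted p = 0.114, not called) when 21070 probe sets were tested singly, so the direction was shared and the size was not. The names ending in _x_at mark probe sets that may also bind other transcripts.

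C1s1 had levels of 5.59, 5.79, 6.47 and 5.31 in obese FB and 8.71, 8.98, 9.36 and 6.79 in lean FB. The groups did not overlap, lean FB array 4 was the lowest of its group, and 1 obese FB array was above the array median. The difference was -2.67 ± 0.72 (adjusted p = 0.0375), and -3.07 with a pseudocount of 1. Its single probe set, 1424041_s_at, may also bind other transcripts of the locus, since mice carry a close copy of the gene.

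Serping1 encodes the C1 inhibitor, which inactivates C1r and C1s. Its level was 7.47, 8.09, 8.03 and 8.31 in obese FB and 10.96, 11.52, 11.25 and 8.85 in lean FB. The groups did not overlap, with lean FB array 4 again closest to the obese arrays. The difference was -2.67 ± 0.71, or 6.35-fold lower in obese FB (adjusted p = 0.0354). These 3 genes were the members whose groups did not overlap, where 11.8% of all tested genes had groups that did not. At an unadjusted p under 0.05 the same count of 3 was found, against 20.2% of tested genes.

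The C1q chains were high on every FB array and overlapped between the groups. C1qa had levels of 12.23, 12.17, 12.11 and 9.79 in obese FB and 12.73, 12.50, 12.71 and 11.12 in lean FB, a difference of -0.69 ± 0.56 (adjusted p = 0.537). C1qb was at 13.55, 13.34, 13.68 and 13.46 in obese FB and 13.86, 13.89, 13.86 and 13.13 in lean FB, a difference of -0.17 ± 0.25 (adjusted p = 0.75). C1qc was at 11.86, 11.49, 11.54 and 10.32 in obese FB and 12.49, 12.33, 12.52 and 10.30 in lean FB, a difference of -0.60 ± 0.55 (adjusted p = 0.587). For all 3 chains arrays 1 to 3 of obese FB lay below arrays 1 to 3 of lean FB, and lean FB array 4 was the lowest lean FB array for each chain. The other C1qb probe sets gave -0.69 (1417063_at) and -0.14 (1437726_x_at), neither called.

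Cfb encodes factor B, the protease of the alternative pathway's C3 convertase. It was at 6.37, 6.48, 6.60 and 5.27 in obese FB and 6.90, 6.97, 7.28 and 6.58 in lean FB, with a difference of -0.75 ± 0.40 (adjusted p = 0.311). The groups overlapped through obese FB array 3 and lean FB array 4. C3ar1, which encodes the receptor for the C3a fragment, was at 11.79, 11.48, 11.5 and 11.3 in obese FB and 12.22, 12.21, 12.32 and 10.78 in lean FB. Its difference was -0.36 ± 0.42 (adjusted p = 0.678), and lean FB array 4 was below every obese FB array.

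**Figure D1:**
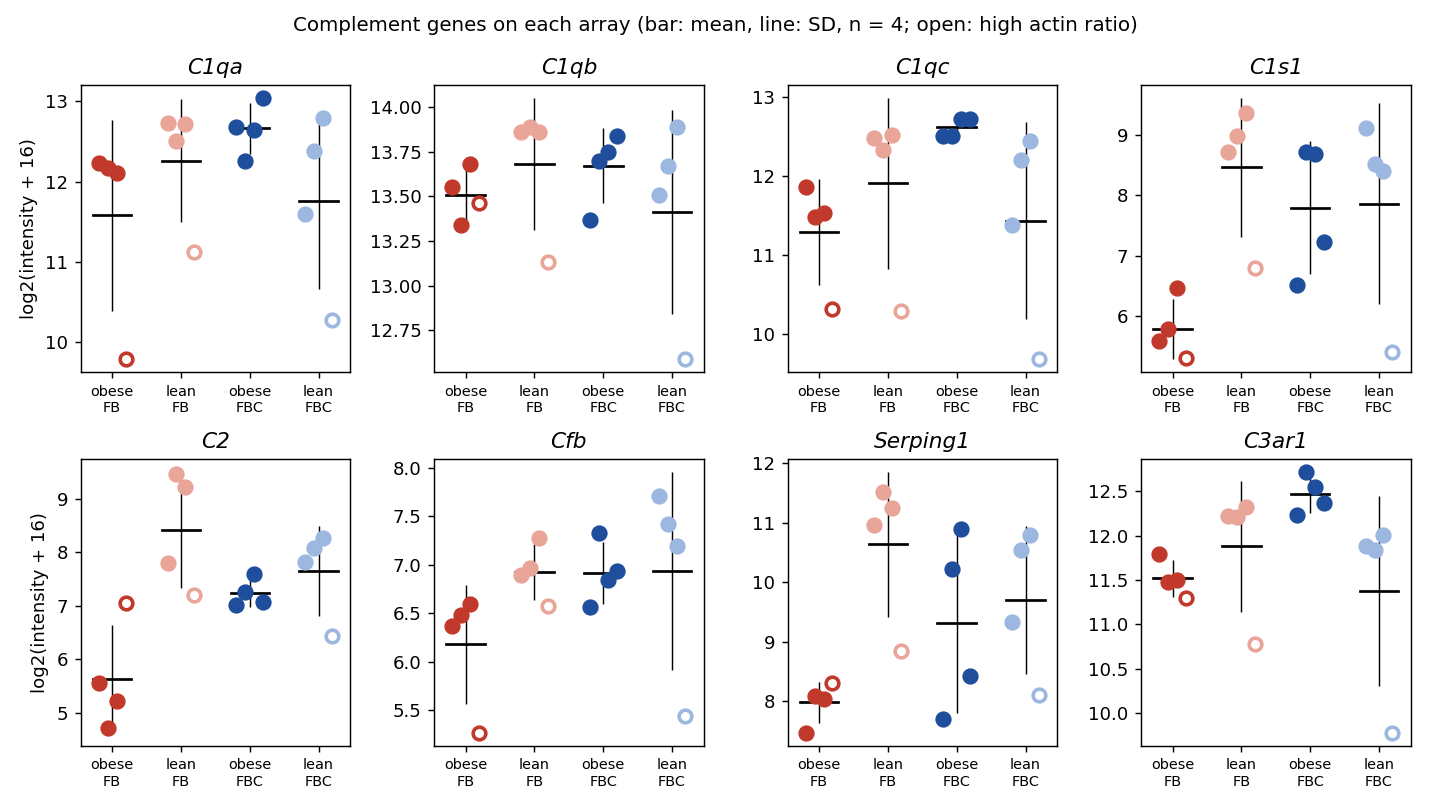
Level of each complement gene on each of the 16 arrays as log2(intensity + 16), with its own vertical range for each gene; bars are group means, lines are SD (n = 4) and open circles are the 3 arrays with a high actin ratio. C2, C1s1 and Serping1 lie lower on all obese FB arrays than on all lean FB arrays, and the open circles are the lowest of their group for C1qa, C1qc, C1s1, C3ar1 and Cfb.

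Without the 3 arrays of high actin ratio, 5 of the 8 genes were called lower in obese FB, where 17.5% of 11641 tested genes were called. C2 differed by -3.66 ± 0.35 (adjusted p = 1.25e-05), Serping1 by -3.33 ± 0.64 (adjusted p = 0.00258) and C1s1 by -3.06 ± 0.48 (adjusted p = 0.000656). C1qc (-0.80 ± 0.23, adjusted p = 0.0276) and C3ar1 (-0.65 ± 0.17, adjusted p = 0.0151) passed there as well. Over the 14 settings that were tried with no single array left out, the adjusted p lay between 9.41e-07 and 0.0286 for C2, between 6.01e-05 and 0.0491 for Serping1, between 5.69e-05 and 0.0521 for C1s1, between 0.0259 and 0.669 for C1qc and between 0.0151 and 0.797 for C3ar1. With 1 array left out at a time the C2 call was never lost. Leaving out any FB array except lean FB array 4 ended the C1s1 call (adjusted p 0.0567 to 0.127), and leaving out any 1 of arrays 1 to 3 of obese or lean FB ended that of Serping1 (0.0724 to 0.126).

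Some genes typical of other cell types were called lower between obese and lean FB too. In obese FB against lean FB, 6 of 18 tested fibroblast genes were called lower and none higher, and without the 3 arrays 14 of 18 were lower and none higher. The summed intensity of 19 fibroblast genes was 2980 to 3940 in obese FB and 20800, 25900, 25300 and 4020 in lean FB, where array 4 again stood apart. Dcn, the matrix protein decorin, was at 9.81 ± 0.15 in obese FB and 12.67 ± 1.41 in lean FB, and Pdgfra, a receptor of mesenchymal cells, at 6.37 ± 0.29 in obese FB and 8.67 ± 1.0 in lean FB (SD, n = 4 each). Col1a1, a collagen gene, overlapped between the groups, at 6.5 ± 0.35 in obese FB and 7.48 ± 1.2 in lean FB (SD, n = 4 each). On lean FB array 4 Col1a1 was at 5.74, below every obese FB array. Fewer cells of a type and less RNA per cell cannot be told apart in such bulk samples.

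Other lists moved in the same comparison. Sums were taken over all listed genes with a single-symbol probe set, tested or not. Of the mesothelial genes 4 of 10 were called lower and 0 higher, with sums of 180 to 567 in obese FB and 689 to 1590 in lean FB; Upk3b, a mesothelial membrane protein, was below the array median on all 4 obese FB arrays and above it on all 4 lean FB arrays. Msln, another mesothelial gene, overlapped, at 5.34 ± 0.69 in obese FB and 6.49 ± 0.48 in lean FB (SD, n = 4 each). Of the adipocyte genes 2 of 5 were lower and 0 higher, with sums over 10 genes of 318 to 464 in obese FB and 1800 to 5810 in lean FB. The adipocyte list names Cfd, the gene of complement factor D. Of the resident macrophage genes 8 of 15 were lower and 0 higher, with sums of 37600 to 46900 in obese FB and 48800 to 89800 in lean FB. Of the dendritic cell genes 6 of 9 were lower and 0 higher, with sums of 1470 to 2140 in obese FB and 4750 to 5540 in lean FB, and of the monocyte genes 4 of 10 were higher and 0 lower, with sums of 37000 to 56000 in obese FB and 21000 to 42100 in lean FB. Of 16 interferon-induced genes 7 were lower and 0 higher, with sums of 9450 to 11300 in obese FB and 15200 to 18400 in lean FB. Eosinophil, neutrophil and lymphocyte genes had 0 called of 3, 5 and 3 tested, and the eosinophil sum was 99.1 to 990 in obese FB and, in lean FB, 562, 390, 388 and, on array 4, 6360. With the 3 arrays left out, 8 of 10 mesothelial, 3 of 5 adipocyte, 12 of 15 resident macrophage, 6 of 9 dendritic, 7 of 15 interferon and 1 of 5 neutrophil genes were lower, 8 of 10 monocyte genes and 1 dendritic gene were higher, and none of 2 eosinophil or 3 lymphocyte genes was called. The part of any of these in the fall of C2, C1s1 and Serping1 was not tested.

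**Figure D2:**
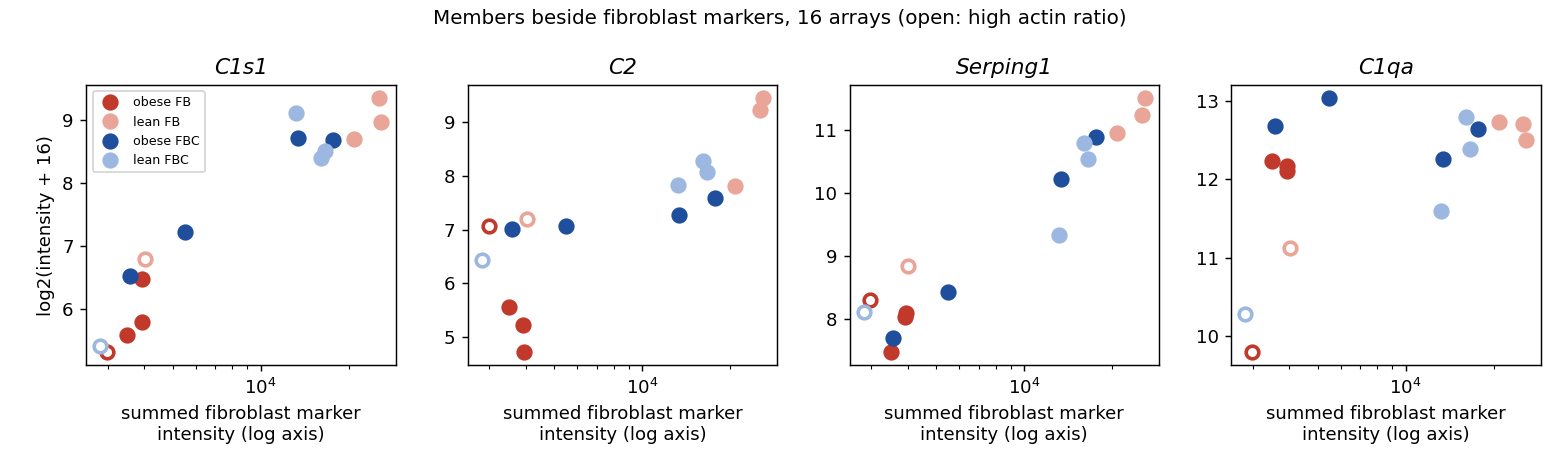
Level of C1s1, C2, Serping1 and C1qa as log2(intensity + 16) against the summed linear intensity of 19 fibroblast genes (log axis) on the 16 arrays, with open circles for the 3 arrays of high actin ratio. Serping1 is highest on the arrays with the largest sums, up to 11.52 in lean FB, and lies between 7.47 and 8.85 on all arrays with a sum of 5490 or less.

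In CD11c-positive macrophages no complement gene passed the test between obese and lean mice by limma, where 14.1% of all tested genes were called. C1qc and C3ar1 passed at an unadjusted p under 0.05, 2 of 8 genes against 28.9% of all tested genes. The same 2 were higher on every obese FBC array than on every lean FBC array, where 20.0% of all genes had groups that did not overlap. The median difference of the 8 genes was 0.12, against 0.08 over all tested genes. The summed intensity of 8 macrophage genes was 48700 to 51500 in obese FBC and 33500 to 41000 in lean FBC, with 2 of 8 called higher (4 of 8 without the 3 arrays) and 0 lower. Sums of other lists also did not overlap: dendritic cell genes had 4330 to 7040 in obese FBC and 10100 to 15900 in lean FBC, monocyte genes 10700 to 11300 in obese FBC and 16900 to 23100 in lean FBC, adipocyte genes 438 to 827 in obese FBC and 1330 to 6460 in lean FBC, and interferon-induced genes 8730 to 11900 in obese FBC and 16200 to 21000 in lean FBC. Eosinophil gene sums were 89.7 to 158 in obese FBC and 272 to 962 in lean FBC, with 1 of 3 called lower and 0 higher. Of 5 tested adipocyte genes 1 was called higher and 1 lower, and without the 3 arrays 3 were lower and 0 higher. Of 10 mesothelial genes 2 were lower with all arrays and 4 without the 3 arrays, and 0 were higher. Of 18 fibroblast genes 0 were called with all arrays, and without the 3 arrays 3 were lower and 0 higher. Of 15 resident macrophage genes 6 were lower with all arrays and 8 without the 3 arrays, and 0 were higher. The part of these lists in the values of C1qc and C3ar1 was not tested.

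C3ar1 was at 12.23, 12.72, 12.55 and 12.37 in obese FBC and 11.88, 11.84, 12.01 and 9.78 in lean FBC, a difference of 1.09 ± 0.42 (adjusted p = 0.0931). Lean FBC array 4 lay far below the rest of its group, and the other lean arrays lay closer to, and still below, all obese ones. Without the 3 arrays the difference was 0.55 ± 0.16 and passed (adjusted p = 0.0224), the single member called there, where 21.8% of genes were; over 14 settings its adjusted p lay between 0.0224 and 0.195. Of its other probe sets, tested singly, 1419482_at differed by 1.38 ± 0.40 and was called (adjusted p = 0.0329), while 1419483_at differed by 1.0 ± 0.40 and was not (adjusted p = 0.117).

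Of the C1q chains, C1qa and C1qc had their smallest SD over the 4 groups in obese FBC, at 0.32 and 0.12. Obese FBC was also the only group without an array of high actin ratio. In each other group array 4, of high actin ratio, was the lowest for both chains and widened the SD. Arrays 1 to 3 of obese FB had C1qa at 12.23, 12.17 and 12.11, closer together than the obese FBC arrays. C1qc was at 12.51, 12.51, 12.73 and 12.72 in obese FBC and 11.38, 12.21, 12.45 and 9.69 in lean FBC, a difference of 1.18 ± 0.55 (adjusted p = 0.167). C1qa was at 12.68, 12.26, 12.64 and 13.04 in obese FBC and 11.59, 12.38, 12.79 and 10.28 in lean FBC, a difference of 0.90 ± 0.56 (adjusted p = 0.309). C1qb was at 13.37, 13.70, 13.75 and 13.84 in obese FBC and 13.51, 13.67, 13.89 and 12.59 in lean FBC, a difference of 0.25 ± 0.25 (adjusted p = 0.54). For C1qa and C1qb the groups overlapped, and lean FBC array 4 was the lowest of these 8 arrays for each chain.

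None of the 3 genes that fell in obese FB was called between obese and lean FBC. C2 was at 7.02, 7.27, 7.59 and 7.07 in obese FBC and 7.83, 8.08, 8.28 and 6.43 in lean FBC, a difference of -0.42 with a 95% interval of -1.55 to 0.71. C1s1 was at 6.52, 8.72, 8.68 and 7.22 in obese FBC and 9.11, 8.52, 8.40 and 5.41 in lean FBC, a difference of -0.07 with an interval of -1.59 to 1.45. Serping1 was at 7.70, 10.23, 10.90 and 8.43 in obese FBC and 9.33, 10.55, 10.80 and 8.11 in lean FBC, a difference of -0.39 with an interval of -1.89 to 1.11. Within obese FBC arrays 2 and 3 were high and arrays 1 and 4 low for C1s1 and Serping1. The fibroblast sum on those arrays was 3570, 13400, 17700 and 5490 in order of their numbers, high on the same 2 arrays, and its part in their spread was not tested.

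Cfb was at 6.57, 7.33, 6.84 and 6.94 in obese FBC and 7.71, 7.42, 7.19 and 5.44 in lean FBC. The difference was -0.02 ± 0.40 (adjusted p = 0.979), with lean FBC arrays both above and below all obese ones.

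**Figure D3:**
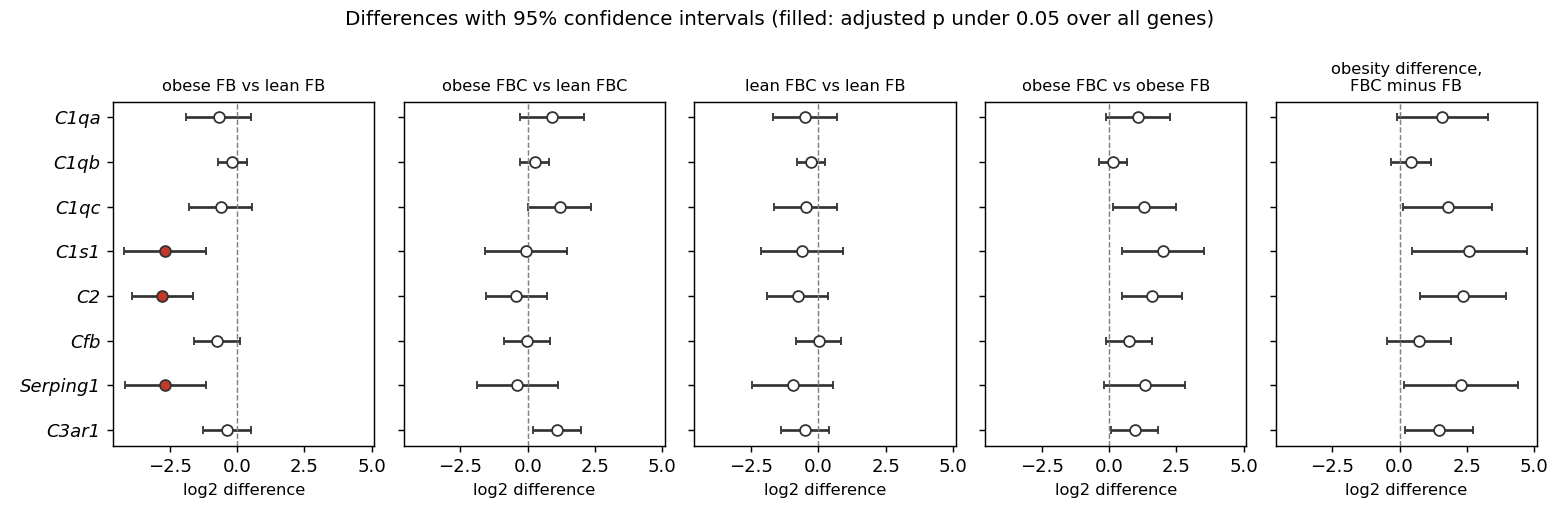
Log2 difference of each complement gene in the 5 comparisons (points) with 95% confidence intervals from limma (lines); filled points passed an adjusted p under 0.05 over all tested genes. C1s1, C2 and Serping1 in obese FB against lean FB are the filled points, and all 8 points lie right of 0 for obese FBC against obese FB.

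Between the sorts of obese mice, no complement gene passed the test by limma without a block for the mouse, where 8.39% of all tested genes were called. With same-numbered arrays as a fixed block 4 of 8 were called (13.9% of all genes), and as a random block 2 (14.7%). No label says that an array number is a mouse. All 8 genes were higher on average in obese FBC than in obese FB, with a median difference of 1.2 against 0.08 over all tested genes. At an unadjusted p under 0.05, 4 of 8 passed, against 25.1% of all tested genes: C2 (1.60 ± 0.53, adjusted p = 0.0746), C1s1 (2.00 ± 0.72, adjusted p = 0.0945), C1qc (1.31 ± 0.55, adjusted p = 0.15) and C3ar1 (0.95 ± 0.42, adjusted p = 0.169). C1qa, C1qc, C1s1 and C3ar1 were higher on every obese FBC array than on every obese FB array, where 17.7% of all genes did not overlap. C2 overlapped through obese FB array 4, at 7.06 against 7.02 on obese FBC array 1.

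C1qa differed by 1.08 ± 0.56 (adjusted p = 0.243), Serping1 by 1.34 ± 0.71 (adjusted p = 0.252), Cfb by 0.74 ± 0.40 (adjusted p = 0.262) and C1qb by 0.16 ± 0.25 (adjusted p = 0.736). These obese FB levels are the same arrays as in the comparison with lean FB, so the lower levels of obese FB enter both. Without obese FB array 4, lean FB array 4 and lean FBC array 4, 4 members were called higher in obese FBC, where 11.8% of genes were. They were C2 (2.09 ± 0.33, adjusted p = 0.00106), C3ar1 (0.86 ± 0.16, adjusted p = 0.00277), C1qc (0.97 ± 0.22, adjusted p = 0.0103) and C1s1 (1.84 ± 0.45, adjusted p = 0.0179). Over 15 settings the adjusted p lay between 0.00106 and 0.174 for C2, 0.00277 and 0.491 for C3ar1, 0.0103 and 0.39 for C1qc and 0.00342 and 0.289 for C1s1. Without those arrays 3 of 18 fibroblast and 3 of 15 resident macrophage genes were called higher in obese FBC too, and none lower. Of 9 dendritic cell genes 4 were higher and 0 lower, with all arrays and without the 3. Their sums were 4330 to 7040 in obese FBC and 1470 to 2140 in obese FB. The macrophage sums were 48700 to 51500 in obese FBC and 34400 to 43400 in obese FB. Of 5 neutrophil genes 3 were lower and 0 higher, with all arrays and without the 3. All 10 tested monocyte genes were called lower in obese FBC than in obese FB, with all arrays and without the 3, with sums of 10700 to 11300 in obese FBC and 37000 to 56000 in obese FB.

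Between the sorts of lean mice, no complement gene was called by limma, and none passed at an unadjusted p under 0.05. Of all tested genes 0.193% were called and 8.20% passed unadjusted. The differences lay between -0.95 ± 0.71 for Serping1 and 0.01 ± 0.40 for Cfb, with a median of -0.51 against 0 over all tested genes. The groups overlapped for all 8 genes, where 5.63% of all genes did not. C2 differed by -0.77, with a 95% interval of -1.90 to 0.36, and C1qa by -0.51, with an interval of -1.70 to 0.68. C1s1 differed by -0.60 ± 0.72, C3ar1 by -0.51 ± 0.42, C1qc by -0.47 ± 0.55 and C1qb by -0.27 ± 0.25.

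The obesity difference in FBC minus that in FB was positive for all 8 genes, and none passed the test by limma, where 0.160% of all tested genes were called. The median was 1.69, against 0.07 over all tested genes. At an unadjusted p under 0.05, 5 of 8 genes passed, against 13.2% of all tested genes. They were C2 (2.37 ± 0.76, adjusted p = 0.201), C1s1 (2.60 ± 1.02, adjusted p = 0.291), C3ar1 (1.46 ± 0.59, adjusted p = 0.307), C1qc (1.79 ± 0.78, adjusted p = 0.337) and Serping1 (2.28 ± 1.0, adjusted p = 0.339). C1qa (1.59 ± 0.80, adjusted p = 0.404), Cfb (0.73 ± 0.57, adjusted p = 0.586) and C1qb (0.43 ± 0.35, adjusted p = 0.61) did not pass. With all 16 arrays, and no block for the mouse, the fall of C2, C1s1 and Serping1 called in FB and not in FBC is not shown to differ between the sorts. With same-numbered arrays as a fixed block in limma, 4 of 8 members passed, where 1.93% of all genes did. C1s1 (adjusted p = 0.0263) and C2 (adjusted p = 0.0479) were among them, and Serping1 (adjusted p = 0.0655) was not. As a random block 0 members passed, where 1.33% of all genes did. No label says that an array number is a mouse.

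Without the 3 arrays of high actin ratio, C2 (2.85 ± 0.48, adjusted p = 0.0115), C3ar1 (1.19 ± 0.23, adjusted p = 0.0186) and C1qc (1.39 ± 0.32, adjusted p = 0.0348) passed the test of that difference, where 2.58% of genes did. C1s1 (adjusted p = 0.106) and Serping1 (adjusted p = 0.171) did not. Over 14 settings the adjusted p lay between 0.0024 and 0.264 for C2, 0.0124 and 0.379 for C3ar1, 0.0348 and 0.412 for C1qc, 0.0263 and 0.366 for C1s1 and 0.0655 and 0.454 for Serping1. On these 13 arrays the obesity differences of C1qc and C3ar1 had opposite signs, by -0.80 ± 0.23 in FB and 0.59 ± 0.22 in FBC for C1qc and by -0.65 ± 0.17 in FB and 0.55 ± 0.16 in FBC for C3ar1; the FBC difference of C1qc did not pass on its own (adjusted p = 0.0663).

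**Figure D4:**
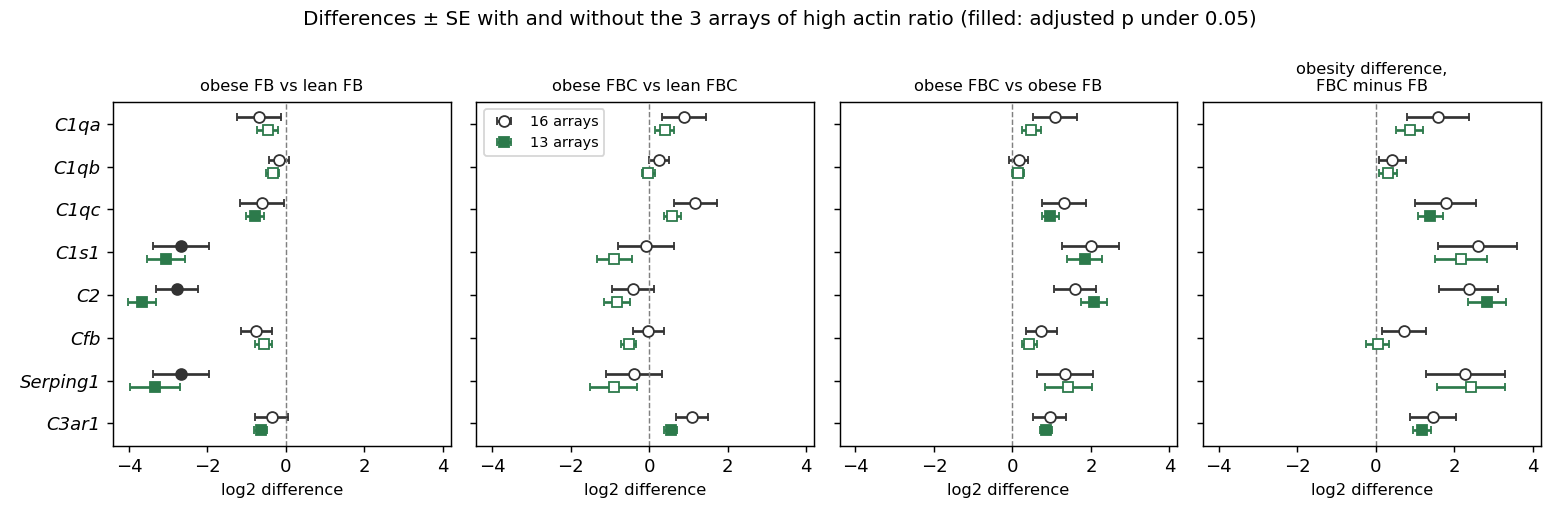
Log2 difference ± SE of each complement gene in 4 comparisons with all 16 arrays (circles) and without the 3 arrays of high actin ratio (squares); filled symbols passed an adjusted p under 0.05. The SE is smaller without the 3 arrays, and 5 genes are filled squares in obese FB against lean FB.

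Over the 16 arrays the levels of all pairs of members correlated positively. C1qa and C1qc correlated at r = 0.935 and C1qc and C3ar1 at r = 0.933, while C1s1 and Serping1 correlated at r = 0.89, C1s1 and Cfb at r = 0.856 and C2 and Serping1 at r = 0.83. C1qa and C2 correlated at r = 0.249, the lowest of all pairs. These values describe 16 arrays that share groups, mice and RNA quality. With the group means taken out, r was 0.923, 0.912, 0.822, 0.833, 0.647 and 0.099 for those pairs in that order. C1s1 then correlated with C3ar1 (r = 0.893) and C1qb (r = 0.842) more closely than with Serping1.

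The tested genes outside the list whose log2 levels were most like each member were found by Pearson's r over the 16 arrays. For Serping1 they were Htra3 (r = 0.986), a secreted protease, and Loxl1 (r = 0.985), a matrix cross-linking enzyme that is on the fibroblast list. For C1s1 they were Sh3d19 (r = 0.966) and Sspn (r = 0.958), a membrane protein of the dystrophin complex, and for C2 Fxyd1 (r = 0.949) and Arhgef5 (r = 0.932). For C1qc they were Rab11fip5 (r = 0.969) and Tuft1 (r = 0.958), for C1qa Rab11fip5 (r = 0.911) and the tubulin gene Tubb4b (r = 0.907), and for C1qb Ly96 (r = 0.916), the co-receptor of the endotoxin receptor, and Serinc3 (r = 0.914). For C3ar1 they were the transporter gene Slco2b1 (r = 0.975) and Mpp1 (r = 0.959), and for Cfb Slc9a9 (r = 0.929) and 9930012K11Rik (r = 0.926).

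**Figure D5:**
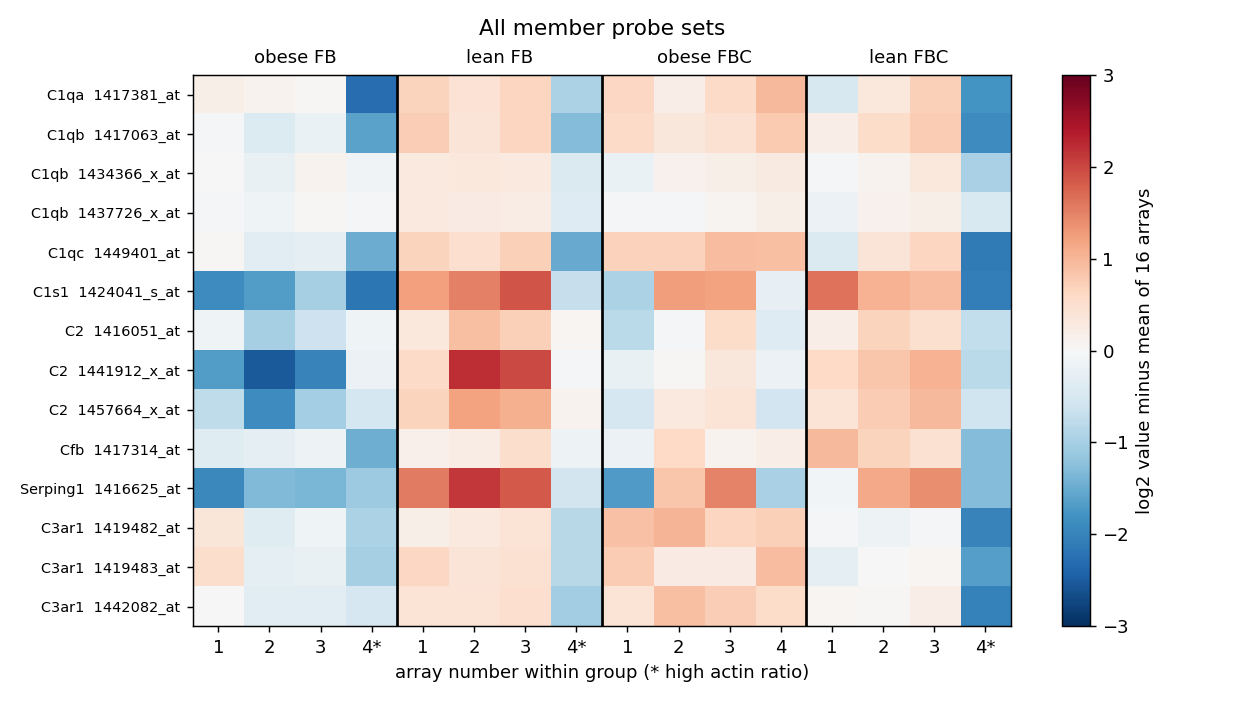
Each of the 14 single-symbol probe sets of the 8 genes (rows) on each array (columns, grouped by obese FB, lean FB, obese FBC and lean FBC), coloured by its log2 value minus its mean over the 16 arrays. The arrays marked with a star have a high actin ratio, and C1s1, Serping1 and the 3 probe sets of C2 are blue on obese FB arrays 2 and 3.

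Other complement genes were read from a list of 48, of which 39 had a single-symbol probe set and 25 were tested. In obese FB against lean FB, 4 were called lower and 2 higher, 6 of 25 where 5.89% of all tested genes were called. Fcna, a ficolin that starts the lectin pathway, was at 9.07, 9.09, 8.71 and 8.09 in obese FB and 11.98, 12.05, 12.28 and 10.94 in lean FB, with no overlap (-3.07 ± 0.56, adjusted p = 0.00343). Clu, the terminal pathway inhibitor clusterin, fell by 2.04 on the log2 scale (adjusted p = 0.0258), Cd55, which speeds decay of C3 convertases, fell by 1.81 (adjusted p = 0.00297), and Cfp, which encodes properdin, the stabilizer of the alternative convertase, fell by 1.46 (adjusted p = 0.0273). Cd93, a receptor once described as one for C1q, was higher by 1.08 (adjusted p = 0.00594), and Lair1, an inhibitory receptor that binds C1q and collagen, by 0.93 (adjusted p = 0.019). Without the 3 arrays 6 were lower and 2 higher of 24 tested.

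In obese FBC against lean FBC, 6 of these 25 genes were higher and 2 lower, where 14.1% of all tested genes were called. Vsig4, the macrophage receptor for C3b, was at 10.06, 11.31, 11.33 and 10.96 in obese FBC and 8.38, 9.29, 9.19 and 7.36 in lean FBC (2.36 ± 0.41, adjusted p = 0.00119). Lrp1, an endocytic receptor, was higher by 1.77 (adjusted p = 0.00242), Cd93 by 1.74 (adjusted p = 5.42e-05), C6, a component of the membrane attack complex, by 1.62 (adjusted p = 0.00892) and Cd59a, which blocks that complex, by 1.07 (adjusted p = 0.0112). Cfp fell by 1.19 on the log2 scale (adjusted p = 0.0415). Without the 3 arrays 6 were higher and 3 lower of 24.

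In obese FBC against obese FB, 6 of 25 were higher and none lower, where 8.39% of all tested genes were called, and one of them was Itgax, the gene of the sort marker. The others were Clu (2.23 ± 0.51, adjusted p = 0.0127), Fcna (2.14 ± 0.56, adjusted p = 0.0254), C6 (1.95 ± 0.37, adjusted p = 0.00399), Vsig4 (1.83 ± 0.41, adjusted p = 0.0106) and Lrp1 (1.26 ± 0.33, adjusted p = 0.0272). With the 3 arrays left out, 7 of 24 were higher and none lower. Fcna and Clu were thus lower in obese FB than in both lean FB and obese FBC, 2 comparisons that share the obese FB arrays. In lean mice Itgax (1.49 ± 0.26, adjusted p = 0.0213) was the single gene of this list called, where 0.193% of all tested genes were, and without the 3 arrays it was not (1.37 ± 0.26, adjusted p = 0.0533), which left 0 of 24. For the difference between the sorts in their response to obesity the list had 0 called by limma and 5 of 25 at an unadjusted p under 0.05, where 13.2% of all tested genes passed; without the 3 arrays 0 of 24 were called.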

How the data were processed

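Expression was measured on 16 arrays, 4 in each group, grouped by their titles. RNA was amplified in 2 rounds, per the labels. The deposited values are linear probe set intensity, made by the authors; the submitters' processing notes name Affymetrix Expression Console. How probe sets were summarized, with which version, is not given in the sources used here. The 2% trimmed mean was 250 on every array, so the authors had scaled them.

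Values were taken as log2(intensity + 16) and quantile-normalized over 45101 probe sets, of which 64 were controls, 34945 had 1 gene symbol, 932 several and 9160 none in the platform annotation. The gene IDs of all 14 member probe sets matched a RefSeq table, with 0 symbols changed. Of a gene's single-symbol probe sets the one of highest mean stood for it. Genes that exceeded the median of their array on 4 or more arrays, 11908 in all, were tested in 1 model of the 4 groups with limma's lmFit and eBayes (12 residual and 16.5 total degrees of freedom). Adjusted p-values are Benjamini-Hochberg over all tested genes, with a threshold of 0.05. limma 3.58.1 ran in R 4.3.3, sequences were read with Python 3.11.15 and plots drawn with matplotlib 3.10.9. The model was tested on simulated data.

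All members were named in every comparison, then other complement genes that were called (at most 6 a comparison, by size), some defining markers, and per member the 2 genes of highest r. Levels of Cd68, Adipoq, Siglecf, Epx, S100a8, Cd3e and Cd79a, also defining markers, are not given. Genes named beyond this rule were chosen after their values were seen. The members and lists were chosen with earlier results of these data known. The design text gives FB and FBC from 4 mice of each genotype, but no label says that an array number is a mouse. Residuals of same-numbered arrays correlated at 0.135, 0.231, 0.299 and 0.595 in lean mice, and at 0.31, 0.033, -0.03 and -0.137 in obese mice. The FB array most like an FBC array had its number only for array 4 in lean mice and arrays 1 and 2 in obese mice. Both lean arrays numbered 4 had a high actin ratio. The alternatives tried were other normalizations, another pseudocount, other filters and probe set rules, array weights, the actin ratio as a covariate or limit, blocks for the mouse and each array left out.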

Additional observations from a re-analysis of the deposited data

Results flagged for a closer look

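Of 32 sets of 4 arrays examined (8 genes in 4 groups), 6 held an array above Dixon's 95% critical value. The measure is the gap of the array to the others, as a share of the range. A single set passes by chance about 1 time in 20. The sets share arrays and their genes correlate, so the count of 6 cannot be set against that rate. The share over all tested genes was not computed. All 6 were arrays numbered 4, and all are among the 3 arrays of high actin ratio. C1qa was at 9.79 on obese FB array 4, against 12.11 to 12.23 on the others of that group. On lean FB array 4, C1qa was at 11.12 (others 12.50 to 12.73), C1qb at 13.13 (others 13.86 to 13.89), C1qc at 10.30 (others 12.33 to 12.52) and C3ar1 at 10.78 (others 12.21 to 12.32). C3ar1 was at 9.78 on lean FBC array 4, against 11.84 to 12.01 on the others of that group. The part of RNA quality in these values was not tested beyond leaving the arrays out.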

How the results depend on the processing

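Of 1216 gene values under 31 other settings, 1125 kept direction and side of the threshold, 44 passed newly, 14 no longer passed and 33 changed sign, none of the 33 called in the model of the report. Members called in obese FB against lean FB numbered 3, and 6 with array weights and 5 without the 3 arrays; with 1 array left out they numbered 1 to 3, and C1s1 also lost its call with no filter (adjusted p = 0.0521). Against 0, array weights gave 2 in obese FBC against lean FBC and leaving out the 3 arrays gave 1. Array weights called 33.5% of all genes in the first of these comparisons, 34.6% in the second, 18.5% in obese FBC against obese FB and 12.9% in the difference between sorts. In obese FBC against obese FB the count was 1 with median centring, 4 with array weights, without the 3 arrays or with the groups compared alone, 2 with the mouse as a random block and 0 to 3 with 1 array left out. With a replicate block it was 4 there (13.9% of all genes) and 4 in the difference between sorts (1.93% of all genes), where it changed the calls of C1s1 (adjusted p = 0.0263), C3ar1 (0.0265), C1qc (0.0443) and C2 (0.0479), while in lean mice it stayed 0. The same-numbered obese arrays did not all correlate over 0.1. That difference had 4 with array weights, 3 without the 3 arrays and 0 to 1 with 1 array left out.

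Over all genes, counts across settings ranged from 585 to 3987 (main 701) in obese FB against lean FB, 1456 to 4115 (1675) in obese FBC against lean FBC, 9 to 1324 (23) in lean FBC against lean FB, 689 to 2202 (999) in obese FBC against obese FB and 3 to 1536 (19) for the difference between sorts, and with 1 array left out from 327 to 1506, 1035 to 2009, 8 to 34, 546 to 1321 and 2 to 348. The replicate block gave 51, 1655 and 230 in the last 3.

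Signs turned as follows. For C1qb, no quantile normalization gave -0.16 in obese FBC against lean FBC, -0.29 in obese FBC against obese FB and -0.05 for the difference between sorts, median centring -0.20, -0.29 and -0.17, the actin covariate -0.13 in obese FBC against obese FB, and 13 arrays -0.02 in obese FBC against lean FBC. For Cfb, no quantile normalization gave 0.01 in obese FBC against lean FBC and -0.03 in lean FBC against lean FB, a pseudocount of 1 gave 0.03 and -0.05, and the actin covariate -0.08 in lean mice. With 1 array left out the values spanned 0 in obese FBC against lean FBC for C1qb (-0.02 to 0.41), C1s1 (-0.89 to 0.35), Cfb (-0.52 to 0.23) and Serping1 (-0.92 to 0.15), and in lean FBC against lean FB for C1qb (-0.45 to 0), C1qc (-1 to 0.11), C1s1 (-1.16 to 0.22), C3ar1 (-0.87 to 0.03) and Cfb (-0.25 to 0.51). The cause was not tested.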
